A study of Mus musculus with 18 samples.

Results

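The Fc gamma receptors, leukocyte integrins and Icam1 were followed as a set of 10 genes out of the 56748 in the gene count file. A gene belonged to the set when its name in that file was Fcgr1, Fcgr2b, Fcgr3, Fcgr4, Fcer1g, Itgam, Itgal, Itgax, Itgb2 or Icam1. RNA was sequenced from RAW 264.7 cells, a transformed mouse macrophage line, in 18 libraries that fall into 6 conditions with 3 libraries each. The authors' column names label all of these libraries WT. The study asked how tert-butylhydroquinone (TBHQ), a phenolic antioxidant used to preserve food, changes the response of macrophages to bacterial and viral ligands. Control cells were plated and kept in medium alone. TBHQ cells received 5 µM TBHQ for 4 h. LPS cells received 0.1 µg/mL lipopolysaccharide, a ligand of the receptor TLR4, for 12 h. PIC cells received 20 µg/mL poly I:C, a double-stranded RNA mimic sensed by TLR3, for 12 h. LPS+TBHQ and PIC+TBHQ cells had a 4 h pretreatment with 5 µM TBHQ before LPS or PIC was added for 12 h. All cells came from a single established line, so the libraries describe that line and not macrophages of several animals. The TBHQ libraries were collected at 4 h, whereas the paper places all other conditions, Control with medium alone among them, in a 12 h design. Time in culture therefore cannot be told apart from treatment in TBHQ against Control. The paper's methods give no collection time for Control and do not say whether LPS and PIC cells waited 4 h before the stimulus. If those cells did not wait, time in culture also differed between stimulated cells with and without TBHQ, and it cannot be told apart from TBHQ there. The DMSO in which TBHQ was dissolved cannot be told apart from TBHQ either, as no library with DMSO alone was analysed here.

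As background, Fc gamma receptors bind the constant part of IgG and let macrophages take up and react to antibody-coated particles. The activating receptors signal through an ITAM, carried by the shared gamma chain Fcer1g, whereas Fcgr2b carries an inhibitory ITIM that recruits the phosphatase Inpp5d. Leukocyte integrins pair an alpha chain (Itgam, Itgal or Itgax) with the common beta chain Itgb2, and they mediate adhesion, uptake of complement-coated particles and binding to ligands such as Icam1.

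Total counts per library ranged from 14423390 to 18851626 with a median of 15742337. A floor of 3 counts corresponded to 0.159 to 0.208 CPM (counts scaled to the library total), a limit that covers counting error only. All 10 genes passed the filter on low counts and were among the 13691 genes tested. Their lowest count in any library was 12, for Itgax in a TBHQ library. FPKM values, which are scaled to gene length and library depth, are used below for levels, as mean ± SD over 3 libraries. Fold changes are log2 values of edgeR's quasi-likelihood fit with the standard error (SE) of the replicates' log2 CPM. FDR is the Benjamini-Hochberg adjusted p of that fit over all 13691 genes, and a gene was called when its FDR was below 0.05.

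The macrophage identity of the cells was checked against marker genes. All 9 macrophage markers (Ptprc, Spi1, Csf1r, Cd68, Lyz2, Adgre1, Cd14, Mrc1 and Tyrobp) had more than 3 counts in at least 1 library, and their summed level was 6014 to 7002 FPKM per library, led by Lyz2 at a mean of 4021 FPKM. Single macrophage markers varied more than this sum, with Adgre1 at 11.5 to 70.7 FPKM, Csf1r at 81.5 to 175, Cd14 at 758 to 1692 and Mrc1 at 0.0659 to 0.343. The 4 NK cell and 4 epithelial markers each had at most 3 counts in every library. Summed levels reached at most 0.354 FPKM for B cell, 0.195 for mast cell, 0.377 for dendritic cell and 0.108 for fibroblast markers. T cell markers summed to 2.22 to 4.94 FPKM, nearly all of it Lck, with means of 2.59 in Control, 2.31 in TBHQ, 4.09 in LPS, 3.04 in LPS+TBHQ, 4.72 in PIC and 4.54 in PIC+TBHQ, and 5 of the 7 T cell markers had at most 3 counts in every library. Endothelial markers summed to 1.10 to 1.62 FPKM, led by Vwf. Neutrophil markers, led by S100a8, moved with stimulation as well: their summed mean was 1.07 FPKM in Control, 0.512 in TBHQ, 4.13 in LPS, 4.12 in LPS+TBHQ, 6.20 in PIC and 4.41 in PIC+TBHQ, while 3 of these 6 markers had at most 3 counts in every library. The part of these markers in the results on the Fc receptors and integrins was not tested. In bulk RNA, fewer cells with a transcript and less transcript per cell cannot be told apart.

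Of the 10 genes, 4 lie together on chromosome 1 and 3 on chromosome 7. Fcgr2b, Fcgr4 and Fcgr3 lie within 106 kilobases and Fcer1g extends this stretch to 276 kilobases. Itgam and Itgax are 11.1 kilobases apart. Fcgr1 is on chromosome 3, Itgb2 on chromosome 10 and Icam1 on chromosome 9. These positions are those of the authors' file. Its build is named in the labels as both GRCm38 and mm39, and every one of the 10 genes starts at another coordinate in the GENCODE GRCm38 annotation. Some of the genes share sequence with others. Of the 50-base words in Itgam transcripts, 66.3% also occur in Gm49368, a protein-coding gene model that overlaps Itgam on the same strand and received 0 to 21 counts per library. For Icam1, 10.7% of the words occur in the antisense gene Gm47079, which received 0 to 3 counts. The corresponding shares were 9.58% for Fcgr3, with Fcgr2b, and 8.02% for Itgax, with Itgad. The level of Itgam per length is therefore uncertain, because how reads common to 2 gene models were counted is not given in the sources used here.

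In TBHQ against Control, 9 of the 10 genes were called, 4 higher and 5 lower, beside 29.0% of all genes tested (14.2% higher and 14.8% lower). In LPS against Control 7 were called, 6 higher and 1 lower, beside 48.1% of all genes (24% higher and 24.1% lower). In PIC against Control 9 were called, 7 higher and 2 lower, beside 58.7% (28.6% higher and 30.1% lower). These 3 comparisons share the Control libraries. In LPS+TBHQ against LPS 4 of the 10 were called, all lower, beside 23.9% of all genes (11.7% higher and 12.2% lower). In PIC+TBHQ against PIC 5 were called, all lower, beside 31.3% (15.8% higher and 15.5% lower). In PIC against LPS 8 were called, 7 higher and 1 lower, beside 27.7% (14.9% higher and 12.8% lower). The median absolute log2 fold change of the 10 genes was 0.65 in PIC against Control, where it was 0.33 over all genes tested. In TBHQ against Control these medians were 0.37 and 0.16. In LPS+TBHQ against LPS they were 0.14 and 0.14, and in PIC+TBHQ against PIC 0.17 and 0.17.

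Larger changes were fewer. With an absolute log2 fold change above 1 as well as FDR below 0.05, 2 of the 10 genes were called in TBHQ against Control, beside 1.99% of all genes. The count was 1 in LPS against Control beside 7.46%, and 3 in PIC against Control beside 13.2%. It was 1 in LPS+TBHQ against LPS beside 1.86%, 1 in PIC+TBHQ against PIC beside 2.38% and 0 in PIC against LPS beside 1.84%. At FDR below 0.01 and an absolute log2 fold change above 2, edgeR called 0 of the 10 in each of these 6 comparisons. The share of all genes at that threshold was 0.190%, 1.64% and 3.57% in TBHQ, LPS and PIC against Control, and 0.387%, 0.299% and 0.307% with TBHQ in LPS, with TBHQ in PIC and in PIC against LPS. Libraries of the compared conditions did not overlap in normalized log2 CPM for 8 genes in TBHQ, 7 in LPS and 9 in PIC against Control, beside 41.0%, 53.8% and 62.7% of all genes. They did not overlap for 4 genes with TBHQ in LPS, 5 with TBHQ in PIC and 8 in PIC against LPS, beside 35.8%, 41.7% and 37.1%.

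**Figure D1:**
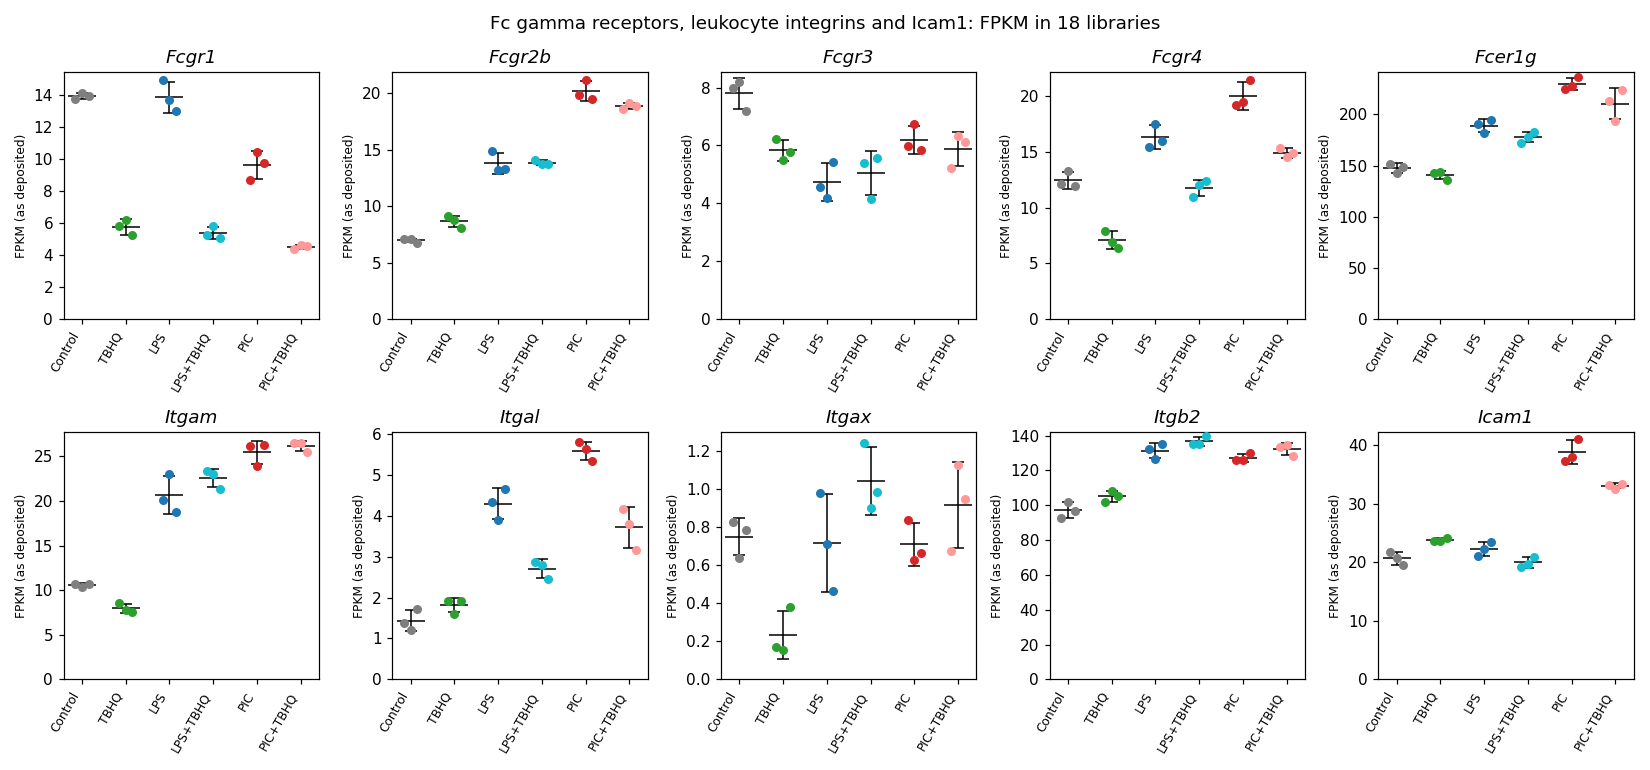
FPKM of the 10 genes in the 18 libraries. Each point is 1 library, the horizontal bar is the mean of 3 libraries and the whiskers are ± SD; each panel has its own linear axis starting at 0. Fcgr1 is at 4.38 to 6.21 FPKM in all 9 libraries that received TBHQ and at 8.69 to 14.9 in the 9 that did not.

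Fcgr1, the high-affinity activating receptor for IgG, fell with TBHQ in all 3 settings. Its level was 13.8, 14.2 and 14 FPKM in the Control libraries and 5.85, 6.21 and 5.26 in the TBHQ libraries. In LPS it was 14.9, 13.7 and 13.0 FPKM, and in LPS+TBHQ 5.27, 5.84 and 5.08. In PIC it was 8.69, 10.5 and 9.79 FPKM, and in PIC+TBHQ 4.38, 4.65 and 4.55. The 9 TBHQ-exposed libraries were thus all lower than the 9 unexposed ones, whatever the stimulus. The log2 fold change was -1.28 ± 0.07 (SE) without a stimulus (FDR = 7.9e-15), -1.37 ± 0.08 in LPS (FDR = 1.4e-15) and -1.08 ± 0.08 in PIC (FDR = 5e-12). LPS alone left Fcgr1 at 13.9 ± 0.968 FPKM, and the difference from Control was not called (log2 fold change -0.02, 95% confidence interval -0.18 to 0.15, FDR = 0.88). PIC lowered it, with a log2 fold change of -0.55 ± 0.08 (FDR = 1.4e-07).

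Fcgr4, an activating receptor of intermediate affinity for IgG2 subclasses, rose with each stimulus and fell with TBHQ. Its level was 12.1, 13.3 and 11.9 FPKM in Control, 15.5, 17.5 and 16.0 in LPS and 19.2, 19.5 and 21.4 in PIC. With TBHQ it was 7.94, 6.96 and 6.35 FPKM without a stimulus, 11, 12.0 and 12.4 in LPS+TBHQ and 15.4, 14.5 and 14.9 in PIC+TBHQ. In each of the 3 settings the TBHQ-exposed libraries were the lower ones. LPS+TBHQ libraries overlapped Control, whereas PIC+TBHQ libraries all lay above it. The rise over Control was 0.38 ± 0.08 in LPS (FDR = 0.00058) and 0.67 ± 0.07 in PIC (FDR = 3.6e-08). The fall with TBHQ was -0.81 ± 0.11 without a stimulus (FDR = 5.2e-08), -0.47 ± 0.08 in LPS (FDR = 0.00014) and -0.41 ± 0.05 in PIC (FDR = 0.00029).

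Fcgr3, a low-affinity activating receptor, was highest in Control. Its level was 7.99, 8.20 and 7.19 FPKM there and 6.22, 5.5 and 5.78 in TBHQ. In LPS it was 4.58, 4.17 and 5.44 FPKM and in PIC 5.99, 6.76 and 5.85. Each of these treated groups lay wholly below Control. The log2 fold change against Control was -0.42 ± 0.08 in TBHQ (FDR = 0.0058), -0.73 ± 0.12 in LPS (FDR = 6.3e-06) and -0.35 ± 0.09 in PIC (FDR = 0.011). The last of these was no longer called without PIC replicate 3, at -0.29, and was -0.57 with total library size. After a stimulus TBHQ made no called difference, with log2 fold changes of 0.09 in LPS (95% confidence interval -0.19 to 0.37) and -0.06 in PIC (-0.33 to 0.20). Fcgr3 had 104 to 232 counts per library, and 9.58% of its sequence words also occur in Fcgr2b.

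Fcer1g, the ITAM-bearing gamma chain that the activating receptors need for surface expression and signalling, was the most abundant of the 10 genes per length. Its mean was 148 ± 4.55 FPKM in Control, 189 ± 6.45 in LPS and 230 ± 6.09 in PIC. Both stimuli raised it, by 0.35 ± 0.04 in LPS (FDR = 5.1e-08) and by 0.62 ± 0.03 in PIC (FDR = 2e-14), and the libraries of each stimulus lay above all Control libraries. With total library size the rise in PIC was 0.40. TBHQ gave 141 ± 4.06 FPKM without a stimulus and 178 ± 5.27 in LPS, and neither difference was called (FDR = 0.26 and 0.16). In PIC+TBHQ the level was 213, 194 and 224 FPKM against 225, 227 and 236 in PIC. This difference of -0.11 ± 0.07 was called at FDR = 0.045, but the libraries overlapped in normalized log2 CPM. It was not called with total library size, at -0.05 and FDR = 0.452, with only the compared groups fitted, at -0.12, without PIC replicate 3, at -0.11, or without PIC+TBHQ replicate 1 or 2, at -0.13 and -0.06. Relative to the summed FPKM of the 3 activating receptors, Fcer1g stood at 4.32 ± 0.284 in Control, 7.55 ± 0.372 in TBHQ, 5.41 ± 0.254 in LPS, 8 ± 0.0856 in LPS+TBHQ, 6.41 ± 0.224 in PIC and 8.30 ± 0.610 in PIC+TBHQ.

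Fcgr2b, the inhibitory receptor, rose with both stimuli. Its level was 7.07, 7.05 and 6.76 FPKM in Control and 9.10, 8.75 and 8.10 in TBHQ. It was 14.9, 13.2 and 13.3 FPKM in LPS and 14.1, 13.7 and 13.7 in LPS+TBHQ. It was 19.9, 21.2 and 19.5 FPKM in PIC and 18.6, 19.1 and 18.9 in PIC+TBHQ. The groups formed steps that did not overlap, from Control through TBHQ to the LPS groups and then the PIC groups, while LPS and LPS+TBHQ overlapped. PIC+TBHQ libraries lay below PIC libraries, a difference that was not called. The log2 fold change against Control was 0.98 ± 0.06 in LPS (FDR = 1.5e-17) and 1.52 ± 0.04 in PIC (FDR = 6.9e-24), and TBHQ alone gave 0.31 ± 0.06 (FDR = 3.5e-05). After a stimulus TBHQ made no called difference, with values of 0.00 in LPS (95% confidence interval -0.10 to 0.11) and -0.09 in PIC (-0.19 to 0.02).

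The balance of activating over inhibitory receptors was described as the summed FPKM of Fcgr1, Fcgr3 and Fcgr4 divided by the FPKM of Fcgr2b in the same library. It was 4.79, 5.07 and 4.90 in Control, 2.20, 2.13 and 2.15 in TBHQ and 2.35, 2.68 and 2.59 in LPS. It was 1.54, 1.60 and 1.68 in LPS+TBHQ, 1.71, 1.73 and 1.90 in PIC and 1.34, 1.33 and 1.36 in PIC+TBHQ. Every treated library lay below every Control library, and within each of the 3 settings the TBHQ-exposed libraries were all lower than the unexposed ones. No test was run on this ratio. Its size depends on the listed gene lengths, which were 5790 bases for Fcgr2b and 2589, 1736 and 1256 for Fcgr1, Fcgr3 and Fcgr4. Mean counts in Control, not scaled to length, were 651 for Fcgr2b and 586, 219 and 253 for Fcgr1, Fcgr3 and Fcgr4. Fcgr1 made up 40.9% ± 1.3 of the summed activating FPKM in Control, 39.8% ± 2.60 in LPS and 26.8% ± 1.47 in PIC, and 30.9% ± 2.11, 24.3% ± 2.20 and 17.8% ± 0.367 in the corresponding TBHQ groups.

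**Figure D2:**
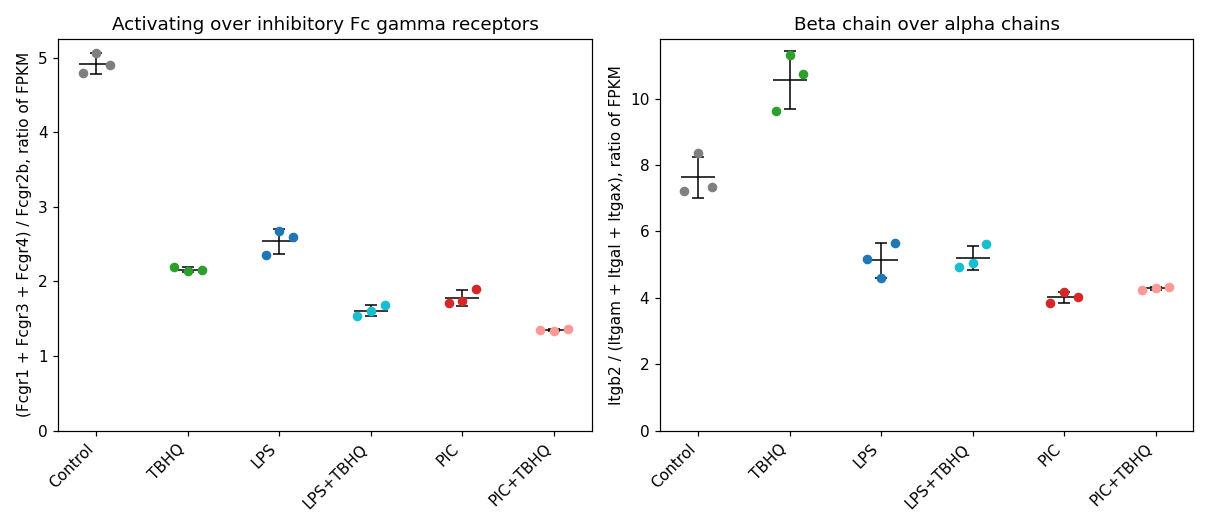
Ratios of FPKM per library, with the mean and ± SD of 3 libraries. The left panel shows the summed activating receptors Fcgr1, Fcgr3 and Fcgr4 over Fcgr2b, with Control at 4.79 to 5.07 and PIC+TBHQ at 1.33 to 1.36; the right panel shows Itgb2 over the summed alpha chains, highest in TBHQ at 9.62 to 11.3.

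Itgam, the alpha chain of complement receptor 3, rose with both stimuli and fell with TBHQ alone. Its level was 10.7, 10.3 and 10.7 FPKM in Control and 8.51, 7.79 and 7.53 in TBHQ. It was 20.2, 23.0 and 18.8 FPKM in LPS and 26.1, 24 and 26.3 in PIC. In LPS+TBHQ it was 23.3, 23.0 and 21.4 FPKM and in PIC+TBHQ 26.5, 26.5 and 25.5. The TBHQ libraries lay below Control, and all stimulated libraries lay above it. The log2 fold change against Control was -0.41 ± 0.06 in TBHQ (FDR = 3.6e-06), 0.96 ± 0.09 in LPS (FDR = 3.2e-16) and 1.25 ± 0.05 in PIC (FDR = 4.5e-20). After a stimulus the difference with TBHQ was 0.13 ± 0.09 in LPS (FDR = 0.094) and 0.05 ± 0.05 in PIC (FDR = 0.53). The LPS value was called at 0.15 with total library size, at 0.14 with no filter on low counts and at 0.21 without LPS replicate 2. It was 0.06 (FDR = 0.488) without LPS replicate 3.

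Itgal, the alpha chain of LFA-1 and a receptor for Icam1, rose the most of the 10 genes with each stimulus. Its level was 1.38, 1.21 and 1.72 FPKM in Control, 4.35, 3.90 and 4.66 in LPS and 5.80, 5.63 and 5.35 in PIC. In LPS+TBHQ it was 2.88, 2.80 and 2.46 FPKM and in PIC+TBHQ 4.17, 3.81 and 3.17. After either stimulus all libraries with TBHQ lay below those without it and above Control. The log2 fold change against Control was 1.57 ± 0.16 in LPS (FDR = 1.7e-14) and 1.94 ± 0.15 in PIC (FDR = 1.1e-17). The fall with TBHQ was -0.67 ± 0.10 in LPS (FDR = 2.6e-06) and -0.58 ± 0.12 in PIC (FDR = 9.5e-06). TBHQ alone gave 1.91, 1.61 and 1.91 FPKM, which overlapped Control. That difference of 0.33 ± 0.17 was called at FDR = 0.039, but not with limma on FPKM, at 0.21 or 0.32, nor without Control replicate 1 (0.30), Control replicate 2 (0.22), TBHQ replicate 1 (0.29) or TBHQ replicate 3 (0.29).

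Itgax, the alpha chain of complement receptor 4, was the least abundant of the 10 genes. Its level was 0.827, 0.639 and 0.789 FPKM in Control and 0.171, 0.153 and 0.379 in TBHQ, which correspond to 61, 50 and 64 counts and to 14, 12 and 31 counts. TBHQ libraries lay below those of every other condition. TBHQ lowered it by a log2 fold change of -1.67 ± 0.39 (FDR = 2.8e-05), with a 95% confidence interval of -2.31 to -1.03. In LPS and PIC the level was 0.719 ± 0.258 and 0.711 ± 0.112 FPKM, and the differences from Control of -0.07 and -0.10 were not called. Their 95% confidence intervals were -0.61 to 0.47 and -0.64 to 0.44. Leaving out 1 library moved the LPS value to between -0.35 and 0.175, and the PIC value to between -0.21 and -0.01. In LPS+TBHQ the level was 1.04 ± 0.179 FPKM and in PIC+TBHQ 0.918 ± 0.227. The differences of 0.54 (95% confidence interval 0.02 to 1.05, FDR = 0.10) and 0.38 (-0.15 to 0.91, FDR = 0.25) from the stimulus alone were not called, although that in LPS was called at 0.55 with no filter on low counts and at 0.82 without LPS replicate 1. Leaving out another library lowered these values to 0.30 in LPS (without LPS replicate 3) and 0.21 in PIC (without PIC+TBHQ replicate 2).

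Itgb2, the common beta chain, was at 97.2 ± 4.49 FPKM in Control, 131 ± 4.35 in LPS and 127 ± 2.21 in PIC. It rose by 0.43 ± 0.05 in LPS (FDR = 2.4e-12) and by 0.37 ± 0.04 in PIC (FDR = 3.7e-11), and all libraries of both stimuli lay above Control. With total library size the rise in PIC was 0.16. TBHQ alone gave 105 ± 3.13 FPKM, a change of 0.11 ± 0.05 (FDR = 0.018) that was not called without Control replicate 1 (0.08), Control replicate 3 (0.11) or TBHQ replicate 2 (0.09). After a stimulus TBHQ made no called difference, at 137 ± 2.61 FPKM in LPS+TBHQ and 132 ± 3.37 in PIC+TBHQ. With total library size the difference in PIC was called, at 0.13. Per length Itgb2 exceeded the sum of the 3 alpha chains in every library. The ratio of FPKM was 7.64 ± 0.624 in Control, 10.6 ± 0.865 in TBHQ, 5.14 ± 0.529 in LPS, 5.20 ± 0.374 in LPS+TBHQ, 4.01 ± 0.162 in PIC and 4.29 ± 0.0431 in PIC+TBHQ. Itgam made up 79.5% to 85.8% of the summed alpha chain FPKM as a mean per condition, within the uncertainty of its level given above.

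Icam1, the adhesion molecule bound by Itgal and Itgam integrins, rose with PIC. Its level was 21.7, 20.8 and 19.6 FPKM in Control, 21.1, 22.2 and 23.5 in LPS and 37.3, 37.9 and 41.1 in PIC. PIC libraries lay above all others, and LPS libraries overlapped Control. The rise was 0.89 ± 0.06 in PIC (FDR = 2.4e-18). In LPS it was 0.10 ± 0.06, with a 95% confidence interval of -0.01 to 0.21 (FDR = 0.086), and it was called without Control replicate 1 (0.14), without LPS replicate 1 (0.14) and among genes with a mean of at least 50 counts (0.12). With total library size it was 0.01 (FDR = 0.838), and without Control replicate 3 it was 0.06 (FDR = 0.356). TBHQ had opposite signs without and with a stimulus. Icam1 was at 23.7, 23.6 and 24.1 FPKM in TBHQ, above Control, with a change of 0.20 ± 0.04 (FDR = 0.0013). It was at 19.3, 19.7 and 21.0 FPKM in LPS+TBHQ and 33.3, 32.6 and 33.4 in PIC+TBHQ, below the libraries of the stimulus alone. The fall was -0.16 ± 0.06 in LPS (FDR = 0.014) and -0.22 ± 0.04 in PIC (FDR = 0.00025). The fall in LPS was not called without LPS replicate 3 (-0.12), LPS+TBHQ replicate 1 (-0.13) or LPS+TBHQ replicate 2 (-0.15).

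The stimuli differed most for Icam1, Fcgr2b and Fcgr1. In PIC against LPS, Icam1 was higher by 0.79 ± 0.06 (FDR = 8.2e-16), and Fcgr2b by 0.54 ± 0.06 (FDR = 6.9e-11). Itgal was higher by 0.37 ± 0.08 (FDR = 0.003), Itgam by 0.29 ± 0.10 (FDR = 7.2e-05) and Fcer1g by 0.27 ± 0.03 (FDR = 9.7e-06). With total library size these 3 values were 0.24, 0.16 and 0.14, and all were still called. Fcgr1 was lower, at -0.54 ± 0.10 (FDR = 1.5e-06). Fcgr3 and Fcgr4 were higher by 0.38 and 0.29 (FDR = 0.025 and 0.011). Neither was called with total library size, at 0.25 and 0.16. The Fcgr3 call was also lost without LPS replicate 1 (0.35), LPS replicate 2 (0.30) or PIC replicate 2 (0.32), and the Fcgr4 call without LPS replicate 1 (0.25) or PIC replicate 3 (0.24). Itgax and Itgb2 were not called, although with total library size Itgb2 was lower, at -0.18. LPS and PIC were given at different doses by mass, so these values compare the treatments as applied.

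Whether TBHQ acted differently in PIC than in LPS was tested as an interaction. By edgeR none of the 10 genes was called, 0 of 10, beside 1.83% of all genes tested (0.825% higher and 1.01% lower; 0.139% with an absolute difference above 1). At an unadjusted p below 0.05 the count was 1, Fcgr1, with a difference of 0.29 (95% confidence interval 0.02 to 0.55, FDR = 0.27). DESeq2 called 0 of the 10, and limma on FPKM called 0 of the 9 that it tested. The 95% confidence intervals of the other differences were widest for Itgax, from -0.90 to 0.58, and for Fcgr3, from -0.54 to 0.23. They reached from -0.22 to 0.33 for Fcgr4, from -0.21 to 0.39 for Itgal and from -0.24 to 0.09 for Itgam. For Fcgr2b the interval was -0.24 to 0.06, for Icam1 -0.21 to 0.09, for Fcer1g -0.16 to 0.11 and for Itgb2 -0.10 to 0.12.

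Whether the change with TBHQ differed between stimulated and unstimulated cells was tested after the values above had been seen. Here time after TBHQ differed as well, and the pair of comparisons shares the Control and TBHQ libraries. For LPS 6 of the 10 genes were called, 3 higher and 3 lower, beside 18.5% of all genes (9.14% higher and 9.33% lower). For PIC 6 of the 10 were called, 3 higher and 3 lower, beside 25.8% (13.3% higher and 12.5% lower). DESeq2 called 5 in each, without Fcgr3 in LPS and Fcgr4 in PIC, and leaving out 1 library ended these calls as well: Fcgr3 was called in 4 and Fcgr4 in 7 of 12 such fits. With an absolute difference above 1 and FDR below 0.05, Itgax alone was called in each, beside 1.80% of all genes in LPS and 2.87% in PIC. Itgax alone was also called above 2 at FDR below 0.01, beside 0.292% and 0.358%, and its difference went down to 1.97 in LPS and 1.83 in PIC when 1 library was left out. The difference was widest for Itgax, at 2.21 ± 0.51 in LPS (FDR = 3.8e-05) and 2.05 ± 0.46 in PIC (FDR = 9.3e-05). Itgal differed by -0.998 ± 0.19 in LPS (FDR = 1.1e-05) and -0.91 ± 0.20 in PIC (FDR = 2.5e-05). Itgam differed by 0.54 ± 0.11 (FDR = 8.6e-06) and 0.46 ± 0.07 (FDR = 5.6e-05), and Icam1 by -0.36 ± 0.07 (FDR = 0.00016) and -0.42 ± 0.06 (FDR = 7e-06). Fcgr1, by contrast, gave -0.09 in LPS (95% confidence interval -0.34 to 0.17) and 0.20 in PIC (-0.07 to 0.46), and neither was called.

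**Figure D3:**
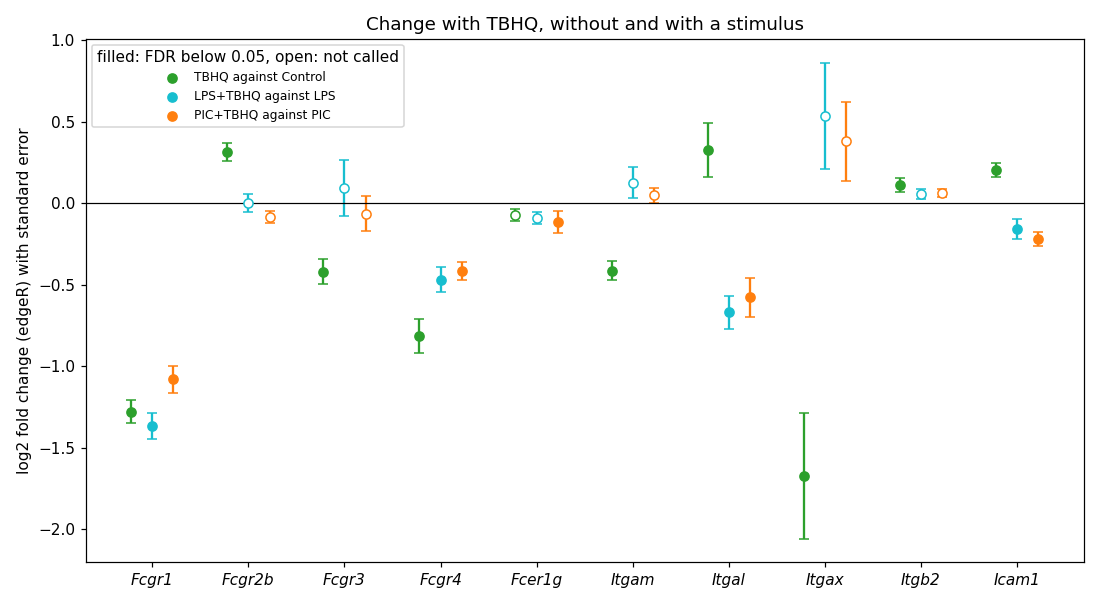
Log2 fold change with TBHQ for each gene without a stimulus, in LPS and in PIC, with its SE over replicates; filled points were called at FDR below 0.05 and open points were not. Fcgr1 and Fcgr4 are below 0 in all 3 settings, whereas Icam1 is above 0 without a stimulus, at 0.20, and below 0 in LPS and PIC, at -0.16 and -0.22.

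Genes whose profile over the 18 libraries was most like that of a member were listed by Pearson correlation of log2 CPM, among 2446 candidates. These values describe libraries that share 6 conditions, with no test. Fcgr1 was most like Rgs2 (r = 0.921), Fcgr4 like Eno2 (r = 0.975) and Fcgr2b like Ptpre (r = 0.991). Fcer1g was most like Fam20c (r = 0.980) and Cd14 (r = 0.980). Itgam was most like Cd300ld (r = 0.989), Itgal like another integrin chain, Itga5 (r = 0.977), and Icam1 like Nfkbie (r = 0.970), which encodes an inhibitor of NF-kappaB. The highest values were lower for Itgax, with 9330104G04Rik (r = 0.911), and for Fcgr3, with Gm9800 (r = 0.751), and that for Itgb2 was with Pck2 (r = 0.977).

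Other genes of these pathways were counted from gene lists, with the scaling of the main fit only. Total library size moved the median of all genes to -0.09 in LPS and -0.23 in PIC against Control. List counts and medians under total library size are not given here, so the sign of small list medians may depend on the scaling. Over all genes tested, 24% were higher and 24.1% lower in LPS, and 28.6% and 30.1% in PIC. With TBHQ these shares were 14.2% and 14.8% without a stimulus, 11.7% and 12.2% in LPS, and 15.8% and 15.5% in PIC. Among 18 activating ITAM signalling genes, all tested, 11 were higher and 5 lower in LPS, and 10 higher and 5 lower in PIC, with a median log2 fold change of 0.20 and 0.35, where the median of all genes was 0.00 and -0.01. Src, a Src-family kinase, rose by 1.22 ± 0.06 in LPS (FDR = 4.1e-22) and by 2.29 ± 0.06 in PIC (FDR = 4e-31), and it fell with TBHQ by 0.39 in LPS and 0.47 in PIC. Syk, the kinase that docks on phosphorylated ITAMs, rose by 0.99 ± 0.03 in LPS, and the adaptor Lcp2 by 1.58 ± 0.07 in PIC (FDR = 2.6e-22 and 1.4e-24). Both were higher with each stimulus. Syk was at 15.1 FPKM in Control, 30.0 in LPS and 43.3 in PIC, and Lcp2 at 43.3, 84.6 and 131. Tyrobp, an ITAM adaptor, fell in both, at -0.41 ± 0.05 and -0.36 ± 0.06. With TBHQ, 5 of the 18 were higher and 6 lower without a stimulus, 3 higher and 5 lower in LPS, and 5 higher and 7 lower in PIC. The adaptor Lat2 rose by 0.30 ± 0.02 in LPS+TBHQ against LPS and by 0.33 ± 0.04 in PIC+TBHQ against PIC (FDR = 1.6e-07 and 1.3e-08).

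Among 12 inhibitory ITIM signalling genes, 5 were higher and 4 lower in LPS, and 5 higher and 6 lower in PIC, where 48.1% and 58.7% of all genes were called. Their median log2 fold changes were -0.03 and -0.09. The inhibitory receptor Lilrb4a rose by 0.83 ± 0.06 in LPS and 1.08 ± 0.02 in PIC (FDR = 1.4e-18 and 2.5e-22), and it fell with TBHQ in PIC by 0.32. With TBHQ, 2 were higher and 2 lower without a stimulus, 2 higher and 4 lower in LPS, and 6 higher and 4 lower in PIC. Inpp5d, the phosphatase that Fcgr2b recruits, rose in all 3 settings, by 0.32 ± 0.03 (FDR = 2.7e-08), 0.16 ± 0.04 (FDR = 0.0024) and 0.16 ± 0.02 (FDR = 0.0016). Of 12 other Fc receptors, 3 were expressed well enough to be tested. With TBHQ, 1 was higher and 1 lower without a stimulus, 1 higher and 1 lower in LPS, and 1 higher and 0 lower in PIC. In PIC against Control 1 was higher, and in LPS the values were not called, at -0.03 (FDR = 0.81) for Fcrl1, 0.18 (FDR = 0.087) for Trim21 and -0.29 (FDR = 0.35) for Fcgrt. Fcgrt, the neonatal Fc receptor, had 21 to 60 counts per library and fell with TBHQ alone, at -0.93 ± 0.08 (FDR = 0.0063). Fcrl1, an Fc receptor-like gene, rose with TBHQ in all 3 settings, by 0.53 ± 0.14 (FDR = 2e-06), 0.78 ± 0.14 (FDR = 8e-10) and 0.80 ± 0.04 (FDR = 5.8e-10). Trim21, a cytosolic antibody receptor, rose by 0.33 ± 0.06 in PIC (FDR = 0.0015) and fell with TBHQ in LPS, at -0.52 ± 0.05 (FDR = 4e-05).

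Among 22 other integrin chains, 13 were tested, of which 3 were higher and 2 lower in LPS and 5 higher and 2 lower in PIC, beside 48.1% and 58.7% of all genes called. Their median log2 fold change was 0.12 in each. Itga5, a fibronectin receptor chain, rose by 1.28 ± 0.05 in LPS and by 1.76 ± 0.03 in PIC (FDR = 5.9e-25 and 1.3e-29). Itga4 fell in both, at -1.46 ± 0.07 and -1.27 ± 0.05 (FDR = 1.6e-24 and 3e-23). With TBHQ, 2 were higher and 2 lower without a stimulus, 1 higher and 3 lower in LPS, and 0 higher and 3 lower in PIC. Itgav fell by 0.66 in LPS+TBHQ and by 0.93 in PIC+TBHQ (FDR = 2.8e-14 and 6.1e-19), and Itga5 fell by 0.53 and 0.60 (FDR = 1.3e-13 and 2.4e-15). Itga5 had risen by 0.44 ± 0.05 with TBHQ alone (FDR = 5.2e-11).

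Among 17 integrin activators and adaptors, 15 were tested, with 9 higher and 2 lower in LPS and 10 higher and 1 lower in PIC. The shares of all genes were 24% higher and 24.1% lower in LPS and 28.6% and 30.1% in PIC, and the list's medians were 0.18 and 0.32. Rap1b, a small GTPase that activates integrins, rose by 0.93 ± 0.02 in LPS and 1.39 ± 0.01 in PIC (FDR = 1e-24 and 1.9e-30). It fell with TBHQ by 0.50 in LPS and 0.51 in PIC (FDR = 3.1e-16 and 1.2e-16). The adaptor Fyb rose by 1.22 ± 0.03 and 1.3 ± 0.07 with the stimuli, and it fell with TBHQ by 0.25 in LPS and 0.31 in PIC. With TBHQ alone it rose by 0.25 ± 0.04 (FDR = 4.2e-05). With TBHQ, 6 of the 15 were higher and 2 lower without a stimulus, 2 higher and 3 lower in LPS, and 2 higher and 4 lower in PIC.

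Of 12 other leukocyte adhesion molecules 5 were tested, of which 3 were higher and 1 lower in LPS. In PIC 2 were higher and 1 lower, beside 48.1% of all genes called in LPS and 58.7% in PIC. With TBHQ, 1 was higher and 1 lower without a stimulus, and 1 higher and 2 lower in each of LPS and PIC. Cd44, a hyaluronan receptor, rose by 0.20 ± 0.02 with TBHQ alone and fell with it by 0.34 in LPS and by 0.62 in PIC (FDR = 2.3e-05, 4.5e-10 and 5.9e-17). Cd47, a ligand of the inhibitory receptor Sirpa, fell with TBHQ in all 3 settings, by 0.31, 0.45 and 0.49 (FDR = 5e-07, 8.9e-11 and 9.3e-12). Against Control, Cd44 rose by 0.25 in LPS and 0.90 in PIC, and Cd47 by 0.52 in LPS and 0.585 in PIC. Among 14 actin regulators of the phagocytic cup, 5 were higher and 3 lower in LPS, and 8 higher and 4 lower in PIC, beside 48.1% and 58.7% of all genes called. Their medians were -0.01 and 0.12. Lcp1, an actin-bundling protein, rose by 0.43 ± 0.02 in LPS and by 0.78 ± 0.02 in PIC, and Myo1f, a myosin, fell by 0.78 and 1.18 (FDR = 4.1e-17 and 2e-22). Myo1f rose with TBHQ by 0.22 in LPS and 0.31 in PIC, and Lcp1 fell with it in PIC by 0.19. With TBHQ, 4 of the 14 were higher and 2 lower without a stimulus, 3 higher and 1 lower in LPS, and 4 higher and 3 lower in PIC.

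RefSeq promoter sequences (GRCm38.p6, 250 bases upstream of the start site) were found for 8 of the 10 genes. Those of Fcgr1 (chr3:96293970-96294219, minus strand), Fcgr4 (chr1:171018676-171018925, plus strand) and Icam1 (chr9:21015690-21015939, plus strand) are printed 5′ to 3′ because these 3 genes were lower with TBHQ after both stimuli. Itgal was lower after both stimuli too, and no promoter entry under its name was used here. Capitals mark matches to the motifs named in the next paragraph.
Fcgr1: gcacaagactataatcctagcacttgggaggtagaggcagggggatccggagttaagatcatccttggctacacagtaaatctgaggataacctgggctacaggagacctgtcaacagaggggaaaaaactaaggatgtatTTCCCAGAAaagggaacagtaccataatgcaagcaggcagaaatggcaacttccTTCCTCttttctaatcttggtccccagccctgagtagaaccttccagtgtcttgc
Fcgr4: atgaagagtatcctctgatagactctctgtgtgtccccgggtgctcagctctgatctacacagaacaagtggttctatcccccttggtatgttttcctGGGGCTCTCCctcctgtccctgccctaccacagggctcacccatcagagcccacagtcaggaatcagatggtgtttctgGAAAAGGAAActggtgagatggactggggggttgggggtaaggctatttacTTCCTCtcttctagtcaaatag
Icam1: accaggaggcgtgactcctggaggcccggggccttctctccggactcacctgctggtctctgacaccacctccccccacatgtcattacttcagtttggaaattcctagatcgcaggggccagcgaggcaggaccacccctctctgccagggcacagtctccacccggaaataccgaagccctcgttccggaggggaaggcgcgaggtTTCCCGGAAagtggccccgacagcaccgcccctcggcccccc

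Motifs were searched on both strands. In Fcgr1 a GAS match (TTCNNNGAA) starts at position -109 from the start site and a PU.1 match (GAGGAA, on the minus strand of the printed sequence) at -55. In Fcgr4 a kappaB match starts at -152, an interferon-stimulated response element (ISRE) match at -73 and a PU.1 match at -22, also on the minus strand. In Icam1 a GAS match starts at -42. The kappaB letters searched were GGRRNNYYCC, with R for A or G, Y for C or T and N for any base. The Icam1 sequence also holds ggaaattcc, which is shorter than these letters and so could not match them. Having no kappaB match here therefore does not mean that Icam1 lacks a kappaB-like site. GAS and kappaB read the same on both strands, so each such match was found on both, and no matches overlap in these 3 sequences. Of 32851 RefSeq promoters of this length, 7.02% hold GAS, 23.3% PU.1, 9.55% kappaB and 2.98% ISRE. The other motifs searched, AP-1 (TGANTCA), the antioxidant response element (TGACNNNGC) and the TATA box, occur in 6.75%, 10.2% and 12.4% of promoters and have no match in these 3. Among the promoters not printed, those of Fcgr3 held kappaB and PU.1 matches, that of Itgam PU.1 matches on both strands and that of Itgax an AP-1 match. These genes were not called lower with TBHQ after either stimulus. A match describes the letters and no binding was measured.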

How the data were processed

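RNA of 18 libraries was analysed from gene-level tables. The authors deposited raw counts per gene, made per the submitters' processing notes with HISAT2 2.0.5 and featureCounts 1.5.0-p3 (StringTie 1.3.3b is also named). The authors also deposited FPKM values, which equal counts per length and library total times 1 constant per library (0.943 to 1.12). The strand setting of counting is not given in the sources used here.

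Counts were tested in R 4.3.3 with edgeR 4.0.16 (filterByExpr, TMM, glmQLFit and glmQLFTest), in 1 fit over all 18 libraries with 1 coefficient per condition and no covariates. P-values were adjusted by Benjamini-Hochberg over all 13691 genes tested. Calls used FDR below 0.05, and were also counted at FDR below 0.01 with an absolute log2 fold change above 2. Confidence intervals used the fit's F statistic and 12 residual degrees of freedom. Log2 CPM used a prior count of 2. The methods were tested on simulated data, and the outcome is not given here. Tables and figures used Python 3.11.15 (pandas 2.3.3, numpy 2.4.6, matplotlib 3.10.9). Alternatives were DESeq2 1.42.0, limma 3.58.1 on log2(FPKM + 1) and log2(FPKM + 0.1) for genes with a mean of at least 1 FPKM, other scalings, filters and thresholds, the replicate number as a block, and leaving out each library. Itgax was below the limma filter, so limma tested 9 of the 10 genes.

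Each library was counted as 1 replicate. No pair of replicates was a copy of the same counts (chi-square per degree of freedom 2.66 to 5.25 over 18 pairs), which does not tell separate cultures from separate libraries. The study calls them biological replicates; the labels name no separate cultures, and p-values measure the spread between these libraries. The 10 genes, gene lists and marker lists were chosen with earlier results of these data known, and the comparisons of the TBHQ effect with and without a stimulus were added after seeing the data. From each gene list, the named genes are taken from the 2 called genes with the largest rise and the 2 with the largest fall per comparison, among genes with a mean of at least 50 counts, and not every gene that met this rule is reported here. Fcgrt is named as well, below that limit. Likeness used genes with a mean of at least 50 counts and an SD of at least 0.3, and the best 3 per gene were listed.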

Additional observations from a re-analysis of the deposited data

Results flagged for a closer look

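The change with TBHQ differed between stimulated and unstimulated cells for 6 of the 10 genes in LPS and 6 in PIC, by an interaction term of the edgeR fit at FDR below 0.05, beside 18.5% and 25.8% of all genes tested. Positive values mean a higher log2 fold change with TBHQ in the stimulus than without it. In LPS the difference was 2.21 for Itgax, 0.54 for Itgam, 0.51 for Fcgr3, -0.31 for Fcgr2b, -0.36 for Icam1 and -0.998 for Itgal. In PIC it was 2.05 for Itgax, 0.46 for Itgam, 0.40 for Fcgr4, -0.40 for Fcgr2b, -0.42 for Icam1 and -0.91 for Itgal. DESeq2 did not call Fcgr3 in LPS (0.51, FDR = 0.0699) or Fcgr4 in PIC (0.38, FDR = 0.0575). Leaving out 1 library also ended these calls: for Fcgr3 the value was then between 0.43 and 0.49 without Control replicate 1 or 2, TBHQ replicate 2, LPS replicate 1 or 2, or LPS+TBHQ replicate 1 or 3, and 0.50 without TBHQ replicate 3. For Fcgr4 it was 0.35 without Control replicate 2, 0.33 without TBHQ replicate 3, 0.35 without PIC replicate 1, 0.36 without PIC replicate 2 and 0.37 without PIC+TBHQ replicate 1. Fcgr4 in LPS (0.35, FDR = 0.071) was called at 0.37 with total library size, by limma at 0.30 and 0.34, and at 0.44 without TBHQ replicate 1 and 0.40 without LPS replicate 2. The unstimulated TBHQ libraries were collected 4 h after TBHQ and the stimulated ones 12 h later, so time and stimulus cannot be told apart.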

How the results depend on the processing

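Of 42 calls of the 10 genes in 7 comparisons, 35 held under every alternative at the same threshold that tested them, and the 7 lost calls are given beside their results; no called value changed sign. All 42 held with DESeq2 and with RLE size factors. Limma on FPKM lost 1, kept 40 and did not test 1, since Itgax was below its filter. Total library size lost 3 and added 3. It shifted the median log2 fold change of all genes by -0.217 in PIC against Control and -0.129 in PIC against LPS, and moved the split of called genes: for LPS against Control from 3283 higher and 3306 lower to 2454 and 4558, for PIC against Control from 3917 and 4120 to 2379 and 6635, for LPS+TBHQ against LPS from 1601 and 1673 to 2061 and 1401, for PIC+TBHQ against PIC from 2167 and 2118 to 3398 and 1436, for PIC against LPS from 2035 and 1752 to 985 and 4373, and for the interaction of PIC and LPS from 113 and 138 to 235 and 74. For the added comparison of the TBHQ effect with that in unstimulated cells, it moved from 1251 and 1278 to 1509 and 1054 in LPS and from 1816 and 1716 to 2696 and 1153 in PIC. Total library size leaves out the TMM factors of the main fit, which were 1.056 to 1.068 in Control, 0.9965 to 1.003 in LPS and 0.9113 to 0.9151 in PIC. Why these factors differ between conditions was not tested. The interaction of PIC and LPS called 251 genes, or 380 with no filter on low counts.

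Stricter thresholds call fewer genes by construction. In the order TBHQ, LPS and PIC against Control, TBHQ within LPS, TBHQ within PIC, the 2 stimuli compared and the interaction, FDR below 0.01 with an absolute log2 fold change above 2 called 26, 224, 489, 53, 41, 42 and 0 genes, and 0 of the 10 genes in each of these 7. FDR below 0.05 with an absolute change above 1 called 273, 1022, 1806, 254, 326, 252 and 19 genes, and 2, 1, 3, 1, 1, 0 and 0 of the 10.

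Leaving out each library in turn, the genes called ranged from 3211 to 3482, 5887 to 6236, 7482 to 7635, 2599 to 3119, 3487 to 3912, 3174 to 3467 and 160 to 354 in the same order, and the calls among the 10 from 7 to 8, 7 to 8, 8 to 9, 3 to 5, 4 to 5, 6 to 8 and 0 to 0. The interaction gave 160 genes without LPS+TBHQ replicate 2. With the replicate number as a block, 4036, 6609, 8063, 3316, 4342, 3836 and 274 genes were called, and 9, 7, 9, 4, 5, 8 and 0 of the 10. The numbers did not pair libraries across conditions: correlations of same-number libraries were -0.0444 to 0.0645.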
